A study of Mus musculus with 3 samples.

Results

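The genes described here are 8 transcription factors that regulate visceral and definitive endoderm: the nuclear receptor gene Hnf4a, the forkhead genes Foxa1, Foxa2 and Foxa3, the zinc finger genes Gata4 and Gata6, the HMG box gene Sox17 and the leucine zipper gene Cebpa. They were taken by name, as every probe set whose only gene symbol in the platform's probe-to-gene table was one of these, which gave 15 of the 45037 probe sets on the array and 8 of its 18193 named genes. Hnf4a had 4 probe sets, Gata6 had 3, Gata4 and Sox17 had 2 each, and the other 4 genes had 1 each. No probe set that named one of them also named another gene.

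RNA came from embryos of the mouse taken whole at 8.5 days post coitum, pooled within litters of both sexes, with 1 Affymetrix array for each pool. The labels do not say whether yolk sac was left on the embryos. The mutant pools, 2 biological replicates of 8 and 6 embryos, carried the genotype Dnmt3l-/+ on a C57Bl/6J background, with a Dnmt3l-/- dam and a wildtype sire. Dnmt3l is a cofactor of the DNA methyltransferases that set methylation in the growing oocyte, and the series describes these embryos as deficient in maternal methylation, with a wildtype paternal Dnmt3l allele in their own genome. The normal group was 1 pool of 6 C57Bl/6J embryos.

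Visceral endoderm is the epithelium that wraps the early embryo and lines the yolk sac, where it takes up maternal nutrients and secretes plasma proteins before the liver does. Definitive endoderm arises later, at gastrulation, and forms the gut and its organs. In mice, Gata6 and Gata4 act early in primitive and visceral endoderm, Hnf4a drives the mature programme of serum protein and lipoprotein genes, and the Foxa factors open chromatin in foregut and liver. Sox17 is needed for definitive endoderm, and Cebpa for liver and myeloid differentiation. Several of them also work outside endoderm: Gata4 and Gata6 in heart, Foxa2 in notochord and floor plate, and Sox17 in endothelium.

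The values were MAS5 signals on a linear scale, scaled array by array before deposit to 1 common trimmed mean, as the values show, and median signals were 130.0 and 139.6 in mutant pools 1 and 2 and 143.6 in the normal pool. Log2 ratios below compare log2(signal + 31.92) in a mutant pool with the normal pool, and the fitted ratio is the mean over both mutant pools. The value added, the pseudocount, makes ratios of dim probe sets smaller than they are. Limma was fitted to all 27022 probe sets kept by a filter on dim ones, and a change was called at an adjusted p under 0.05. Highest and lowest genes of a list are those by the mutant ratio nearer to 0, and the values printed for them are fitted log2 ratios. The spread came from the 2 mutant pools alone, so the 1 normal pool is taken to vary as they do, and the number of arrays limits every value. Fewer cells of a type and less RNA per cell cannot be told apart in whole embryos.

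The promoters of 3 of the genes are printed to show which elements known for factors of this network they hold, and how many CpG sites, the bases that carry methylation, lie there. Each run is 300 bases from RefSeq on build GRCm38.p6, from 250 before to 50 after an annotated start site, read along the gene's own strand. Capitals mark matches, on either strand, to GTTAAT (an HNF1 site core), CAAAGNNCA (an HNF4 element), AGATAA (an element that GATA factors bind) or TGTTTAC (a forkhead element). Hnf4a is known to be transcribed from a pair of promoters, and its upstream and downstream windows lie at chr2:163506607-163506906 and chr2:163546905-163547204, on the + strand. The Foxa1 window is chr12:57546062-57546361 and the Foxa2 window is chr2:148045415-148045714, both on the - strand.
Hnf4a, upstream: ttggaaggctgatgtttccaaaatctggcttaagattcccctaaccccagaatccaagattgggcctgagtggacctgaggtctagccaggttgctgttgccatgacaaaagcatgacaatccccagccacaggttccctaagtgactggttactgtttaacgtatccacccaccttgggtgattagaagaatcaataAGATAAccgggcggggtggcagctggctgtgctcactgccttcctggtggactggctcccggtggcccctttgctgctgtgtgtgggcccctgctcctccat
Hnf4a, downstream: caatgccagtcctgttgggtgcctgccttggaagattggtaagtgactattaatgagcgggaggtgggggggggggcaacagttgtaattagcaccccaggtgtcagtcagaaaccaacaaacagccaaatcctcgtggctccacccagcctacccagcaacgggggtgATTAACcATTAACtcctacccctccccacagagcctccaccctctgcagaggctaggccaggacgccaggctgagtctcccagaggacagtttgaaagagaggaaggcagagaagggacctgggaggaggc
Foxa1: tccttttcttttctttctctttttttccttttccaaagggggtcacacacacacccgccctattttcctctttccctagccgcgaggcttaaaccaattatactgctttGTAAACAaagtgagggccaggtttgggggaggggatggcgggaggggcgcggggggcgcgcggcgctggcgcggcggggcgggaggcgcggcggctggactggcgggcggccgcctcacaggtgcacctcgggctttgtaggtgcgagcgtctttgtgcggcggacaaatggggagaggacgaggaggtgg
Foxa2: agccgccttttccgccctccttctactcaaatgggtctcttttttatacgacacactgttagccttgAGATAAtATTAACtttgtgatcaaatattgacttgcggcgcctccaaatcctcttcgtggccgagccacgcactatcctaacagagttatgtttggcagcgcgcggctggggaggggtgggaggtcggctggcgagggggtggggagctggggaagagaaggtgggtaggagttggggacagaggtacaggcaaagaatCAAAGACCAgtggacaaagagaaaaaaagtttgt

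By exact match to these strings, the upstream Hnf4a window held 1 GATA element, which starts at -52. The downstream window held 2 HNF1 site cores in tandem, which start at -81 and -74. Sites that differ from the strings by a base were not searched for in any window. The Foxa1 window held 1 forkhead element, at -141. The Foxa2 window held a GATA element at -183, an HNF1 site core at -176 and an HNF4 element at 17, and no matches overlapped. Of the 32851 windows in the table, 7.10% held the HNF1 site core, 6.36% the HNF4 element, 11.2% the GATA element and 3.65% the forkhead element, so single matches of this kind are common and say nothing of binding. Windows of 5 of the 8 genes were read here, 8 windows in all, and those of Gata4, Gata6 and Sox17 were not. The 2 other Foxa2 windows and those of Foxa3 and Cebpa held none of the motifs.

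The Hnf4a windows held fewer CpG than those of Foxa1, Foxa2, Foxa3 and Cebpa, the only other factors whose windows were read. Each Hnf4a window held 4, against 26 for Foxa1, 13, 23 and 12 for the Foxa2 windows, 22 for Foxa3 and 29 for Cebpa. The median over all windows was 7, and 38.0% of all windows held 4 or fewer, so 4 is not unusual. The map of matches and CpG sites shows this contrast.

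**Figure D1:**
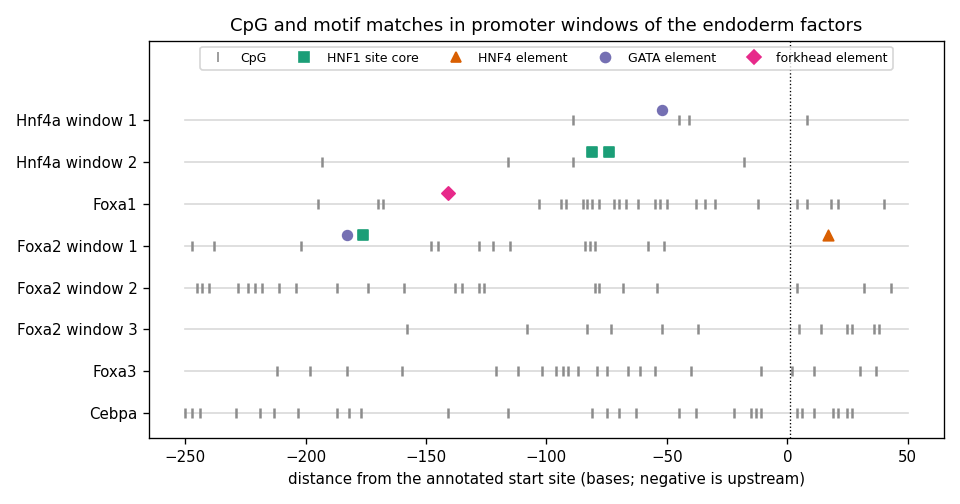
Each row is a promoter window of an endoderm factor, with distance from the annotated start site in bases on the x axis, grey ticks for CpG sites and coloured symbols for motif matches. The 2 Hnf4a windows hold 4 CpG sites each, and the window with the most, that of Cebpa, holds 29.

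By its brightest probe set, Hnf4a was the 1 gene called higher in the mutant pools among the 7 that could be tested, and none was called lower. The call rests on 2 of its 4 probe sets, and was lost with the mean of all 4, without the filter and without the variance trend. Its brightest probe set was 5.13-fold higher on the scale of signal + 31.92 (log2 ratio 2.36, SE 0.23). The brightest probe sets of Foxa1, Foxa2, Foxa3, Gata4, Gata6 and Sox17 had log2 ratios from -0.21 to 0.71 and were not called, and Cebpa was too dim to be tested. Over all their probe sets, 14 of 15 were kept by the filter, 2 of those 14 were called higher and 0 were called lower. Over the array, 0.548% of kept probe sets were called higher and 0.0296% lower. At an unadjusted p under 0.05 (limma), 3 of the 14 were higher and 0 were lower, against 6.7% and 6.86% over the array.

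By direction alone, both mutant pools lay above the normal pool in 10 of the 14 probe sets and below it in 1, and the groups overlapped in 3. Over the array the shares were 32.2% above and 42.5% below. By the brightest probe set of each gene, 6 of the 7 lay above and 0 below, against 36.5% and 39.1% of all kept genes. Probe sets of the same gene are not separate, and all share the 1 normal pool. Some lay above by little, such as Gata6 1425464_at, with a log2 ratio of 0.01 in mutant pool 1. At least 2-fold higher in both mutant pools were 2 of the 14, both of Hnf4a, against 2.57% of all kept probe sets. The median log2 ratio of the 7 genes kept, each by its brightest probe set, was 0.35, with 0.42 in mutant pool 1 and 0.57 in mutant pool 2. The median over all 12913 kept genes was -0.02. The plot of signals shows every probe set on every array.

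**Figure D2:**
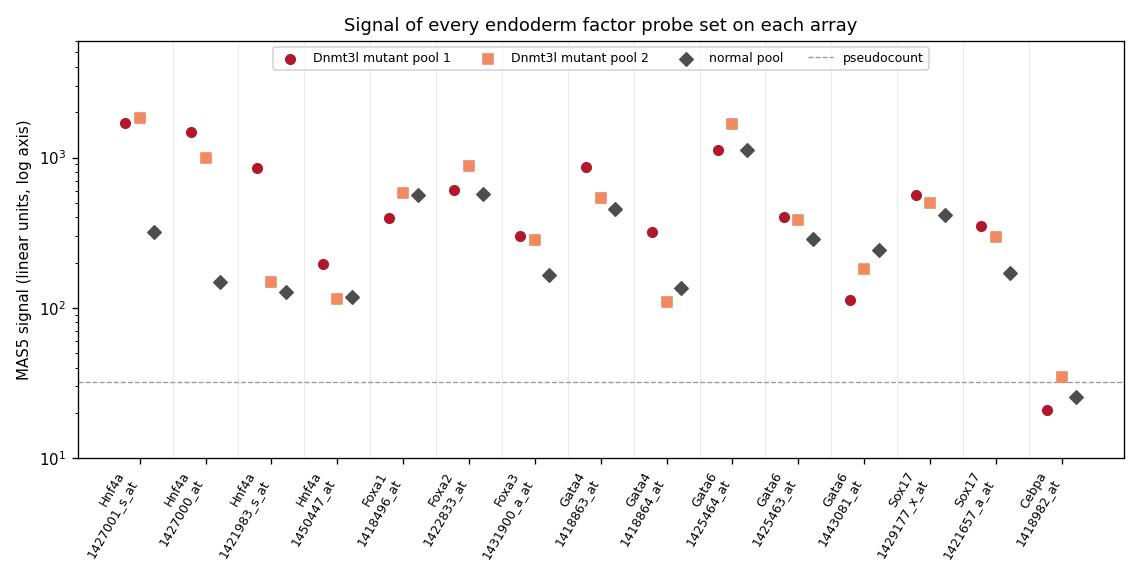
Points are MAS5 signals on a log axis for each probe set of the endoderm factors, with mutant pools 1 and 2 left of the normal pool and the pseudocount of 31.92 as a dashed line. Only the first 2 Hnf4a probe sets have both mutant pools over 5-fold above the normal pool, and Cebpa lies near the pseudocount on all 3 arrays.

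Hnf4a encodes a nuclear receptor that activates apolipoprotein, clotting factor and transport genes in visceral endoderm and liver. Probe set 1427001_s_at read 1690 and 1844 in mutant pools 1 and 2, against 319 in the normal pool. Probe set 1427000_at read 1469 and 989 in mutant pools 1 and 2, against 148 in the normal pool. Both mutant pools were high and close to each other in the first, and both were far above the normal pool in the second. The fitted log2 ratio was 2.36 for 1427001_s_at (95% interval 1.79 to 2.93, adjusted p = 0.0296) and 2.78 for 1427000_at (SE 0.32, interval 1.99 to 3.58, adjusted p = 0.0429). The annotation assigns these 2 probe sets to the same expressed sequence tag, so they do not count as separate evidence of the gene's level.

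The other Hnf4a probe sets, both assigned to the RefSeq transcript of the gene, read differently in the mutant pools. Probe set 1421983_s_at read 850 and 149 in mutant pools 1 and 2, against 128 in the normal pool. Only mutant pool 1 was high there, and mutant pool 2 lay close to the normal pool. Its log2 ratio was 2.46 in mutant pool 1 and 0.18 in mutant pool 2, and the fitted value of 1.32 was not called (SE 0.89, adjusted p = 0.581). Probe set 1450447_at read 194 and 114 in mutant pools 1 and 2, against 117 in the normal pool, so the groups overlapped (log2 ratio 0.28, adjusted p = 0.808). Where these probe sets lie on the gene's alternative transcripts was not analysed here. The call of Hnf4a was lost with the mean of all 4 probe sets in place of the brightest (log2 ratio 1.69, SE 0.36, adjusted p = 0.0865). It was also lost without the filter on dim probe sets (adjusted p = 0.120) and when the variances were not fitted to signal (adjusted p = 0.114), settings at which no probe set on the array was called.

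The 3 Foxa genes encode forkhead factors of foregut, liver and midline, and none of them was called. Foxa3 read 299 and 280 in mutant pools 1 and 2, against 165 in the normal pool. Both mutant pools lay above the normal pool and near each other, with a log2 ratio of 0.71 (SE 0.29, interval -0.02 to 1.44, adjusted p = 0.377). Foxa2, which also marks notochord and floor plate, read 611 and 881 in mutant pools 1 and 2, against 569 in the normal pool. Mutant pool 1 lay close to the normal pool and just mutant pool 2 stood above it (log2 ratio 0.35, SE 0.30, interval -0.41 to 1.11, adjusted p = 0.676). Foxa1, which overlaps Foxa2 in gut endoderm, read 396 and 584 in mutant pools 1 and 2, against 561 in the normal pool. Here the groups overlapped, with mutant pool 1 the lowest of the 3 arrays (log2 ratio -0.21, SE 0.32, interval -1.01 to 0.59, adjusted p = 0.825).

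Of the notochord and floor plate list, which bears on Foxa2, 3 of 8 genes were kept and 0 were called. Shh, the midline signal, had a log2 ratio of -0.54 (0.26 by the mean of its probe sets), the axon guidance gene Ntn1 -0.40 and the BMP antagonist gene Chrd -0.28. The summed signal of the 5 genes measured was 1621 and 2153 in mutant pools 1 and 2, against 2485 in the normal pool. Its part in the Foxa2 value was not tested.

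The GATA factors, zinc finger proteins that start the endoderm programme and are shared with the heart, had small ratios too. Gata4 probe set 1418863_at read 866 and 535 in mutant pools 1 and 2, against 453 in the normal pool. Both mutant pools were above the normal pool, but mutant pool 2 only slightly (log2 ratio 0.56, SE 0.35, interval -0.31 to 1.42, adjusted p = 0.551). The dimmer Gata4 probe set 1418864_at read 317 and 109 in mutant pools 1 and 2, against 135 in the normal pool, so mutant pool 1 was the highest array and mutant pool 2 the lowest. Its log2 ratios were 1.06 in mutant pool 1 and -0.25 in mutant pool 2 (fitted value 0.41, adjusted p = 0.807).

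The brightest Gata6 probe set, 1425464_at, read 1127 and 1676 in mutant pools 1 and 2, against 1118 in the normal pool. Mutant pool 1 equalled the normal pool to within 1.01-fold, and mutant pool 2 was higher (log2 ratio 0.29, SE 0.30, interval -0.45 to 1.03, adjusted p = 0.722). Probe set 1425463_at, assigned to the same sequence, read 402 and 386 in mutant pools 1 and 2, against 286 in the normal pool (log2 ratio 0.42, SE 0.27, adjusted p = 0.562). Probe set 1443081_at had the opposite sign, with 112 and 182 in mutant pools 1 and 2, against 242 in the normal pool. It was the 1 probe set of the 14 with both mutant pools below the normal pool (log2 ratio -0.64, SE 0.38, adjusted p = 0.527). The mean of the 3 Gata6 probe sets gave a log2 ratio of 0.02, with -0.16 in mutant pool 1 and 0.20 in mutant pool 2.

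Heart genes, which share Gata4 and Gata6, were lower in both mutant pools in 10 of 10 cases, against 39.1% of all kept genes, and 0 were called. Their median log2 ratio was -0.83. The T-box gene Tbx5 (-1.45, and -0.71 by the mean of its probe sets), the troponin gene Tnnt2 (-1.10) and the homeobox gene Nkx2-5 (-0.94) were lowest by the ratio nearer to 0. The myosin gene Myh7 (-0.90, with -1.53 in mutant pool 1 and -0.27 in mutant pool 2), the actin gene Actc1 (-0.37) and Hand2 (-0.17) were the highest by that measure. The summed signal of the 10 genes was 19315 and 26361 in mutant pools 1 and 2, against 35325 in the normal pool, and its part in the GATA values was not tested.

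Sox17, an HMG box factor of definitive endoderm and of endothelium, was above the normal pool in both mutant pools by both of its probe sets without being called. Probe set 1429177_x_at, whose suffix marks probes that may bind other transcripts, read 566 and 495 in mutant pools 1 and 2, against 416 in the normal pool (log2 ratio 0.33, SE 0.26, interval -0.33 to 0.98, adjusted p = 0.648). Probe set 1421657_a_at read 350 and 294 in mutant pools 1 and 2, against 170 in the normal pool. Its mutant pools were close together and both above the normal pool. The fitted value on the log2 scale was 0.81 (SE 0.30, interval 0.07 to 1.55), with an unadjusted p of 0.0376 and an adjusted p of 0.339. Of 10 genes of endothelium, where Sox17 also acts, 0 were called and 6 were above the normal pool in both mutant pools, against 36.5% of all kept genes (median log2 ratio 0.49). Pecam1 (1.06), Erg (0.81) and the cadherin gene Cdh5 (1.02) were highest there, and the receptor gene Kdr (0.10), Emcn (0.26) and Fli1 (0.07) were lowest by the ratio nearer to 0. By the fitted value Eng was lowest (-0.16), named after its value was seen. The summed signal of those 10 genes was 4726 and 6230 in mutant pools 1 and 2, against 3843 in the normal pool, and its part in the Sox17 values was not tested.

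Cebpa, a factor of liver, fat and myeloid cells, read 20.8 and 34.4 in mutant pools 1 and 2, against 25.4 in the normal pool. These values lay at percentiles 16.4 and 20.4 of mutant pools 1 and 2 and at 17.3 of the normal pool. The filter removed the probe set, and no change could be measured there. The related gene Cebpb, from the list of other regulators, read 762 and 753 in mutant pools 1 and 2, against 231 in the normal pool. Its mutant pools were nearly equal (log2 ratio 1.59, SE 0.25, not called at an adjusted p of 0.0885).

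The interval of the brightest Hnf4a probe set did not overlap those of the other genes by theirs, a separation that rests on the choice of the brightest. With the mean of a gene's probe sets the Hnf4a interval was 0.82 to 2.55, which overlaps those of Foxa3 (up to 1.27), Foxa2, Gata4 and Sox17. The 2 Hnf4a probe sets that were not called had intervals of -0.90 to 3.54 and -0.72 to 1.28, which overlap those of all the other genes. The lower end for the brightest Hnf4a probe set was 1.79, while the upper ends for the brightest probe sets of the other 6 tested genes ran from 0.59 for Foxa1 to 1.44 for Foxa3. Log2 ratios of 1.79 or more therefore lay outside the interval of each of those 6, while rises of up to 1.5-fold lay inside all of them. The dimmer Gata4 probe set, with an interval of -1.03 to 1.84, was the 1 probe set outside Hnf4a whose interval reached 1.79. The mutant pools differed by 2-fold or more in 2 of the 14 probe sets, 1421983_s_at of Hnf4a and 1418864_at of Gata4, against 4.58% of all kept probe sets. In both, mutant pool 1 was the higher. The median absolute difference in log2 ratio between the mutant pools was 0.54 over the 14 probe sets, against 0.24 over all kept probe sets.

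**Figure D3:**
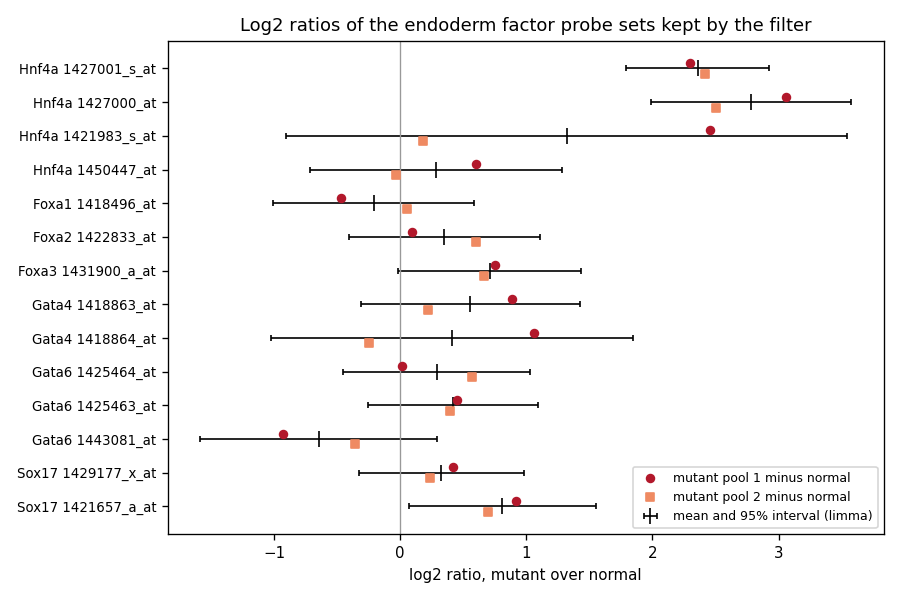
Log2 ratios of mutant over normal for the 14 probe sets tested, with a point for each mutant pool and a bar for the limma mean with its 95% interval. The 2 upper Hnf4a rows, at 2.36 and 2.78, have the 2 highest fitted ratios, and both pools of those rows lie above 2. The third Hnf4a row has a pool 1 point at 2.46 and the widest interval, up to 3.54.

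Genes known to be regulated by these factors in endoderm or liver were mostly higher in the mutant pools. Of 24 listed, 21 were measured and kept, 14 rose and 0 fell, against 0.728% of all kept genes called higher and 0.031% lower, and their median log2 ratio was 2.56. The lipoprotein genes Apob (3.85, and 2.48 by the mean of its probe sets), Apoa4 (3.79), Apoc2 (3.01), Apoa1 (2.57) and Apoe (2.09) rose, as did Mttp (2.56), which loads lipid onto apolipoprotein B. The carriers Rbp4 (2.68), Ttr (1.74) and Afp (1.81), the fibrinogen gene Fgb (3.29) and the microvillus gene Vil1 (2.58) rose as well. So did Cubn (3.24), Amn (3.23) and Dab2 (2.08), whose products work together in protein uptake. Alb, the adult albumin gene, read 65.2 and 97.4 in mutant pools 1 and 2, against 159 in the normal pool (log2 ratio -0.77, not called). The basement membrane genes Lamb1 (-0.21) and Col4a1 (0.51), regulated by the GATA factors, were not called either. The calls on this list and the lists below were also lost without the filter and without the variance trend.

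Markers of yolk sac visceral endoderm, 10 of which are also on that list of regulated genes, were read next. Because of this overlap they cannot tell the amount of this tissue apart from the activity of the factors. All 11 measured markers rose, with a median log2 ratio of 2.68, and Spink1, a trypsin inhibitor gene, was among them (2.30). Their summed signal was 116396 and 119983 in mutant pools 1 and 2, against 22297 in the normal pool. Of 8 parietal endoderm genes, 0 were called and 6 lay above the normal pool in both mutant pools, against 36.5% of all kept genes. Their median was 0.58, with Sparc at 0.95, Col4a2 at 0.91, Lama1 at 0.67, Lamc1 at 0.39 and Plat at -0.43. Of 9 definitive and gut endoderm genes kept, 0 were called (median 0.05). In both mutant pools 4 of them lay above and 4 below, against 36.5% and 39.1% of all kept genes. Cldn6 (0.64), Epcam (0.61) and Krt8 (0.42) were highest there, and Nepn (-0.79), Pyy (-0.97) and Sox2 (-0.82) lowest. The part of tissue makeup in the Hnf4a value was not tested.

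**Figure D4:**
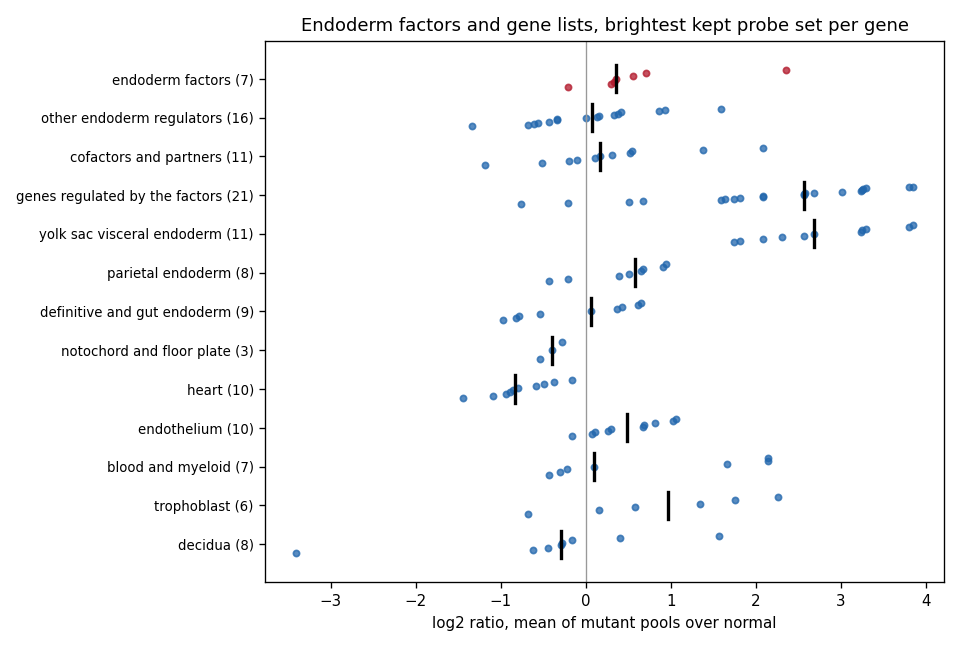
Each point is a gene's log2 ratio, mutant over normal, by its brightest kept probe set, in rows for the endoderm factors (red) and each list (blue), with the number of genes in brackets and the median as a black bar. Hnf4a, at 2.36, lies within the range of the yolk sac visceral endoderm genes (median 2.68), and the other 6 factors lie between -0.21 and 0.71. By the mean of probe sets, which is not plotted, Hnf4a was 1.69, below all of those yolk sac genes (lowest Dab2, 1.88).

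Other regulators of endoderm lay above and below the normal pool about as often as all kept genes did, and none was called. Of 26 listed, 24 were measured and 16 kept, with 0 called and a median log2 ratio of 0.07. In both mutant pools 6 lay above and 6 below the normal pool, against 36.5% and 39.1% of all kept genes. Besides Cebpb, the highest were Sox7 (0.87), a relative of Sox17 that also marks extraembryonic endoderm, and the Wnt effector gene Tcf7l2 (0.93). The mean of the Sox7 probe sets gave -0.04. The lowest by the ratio nearer to 0 were Otx2 (-1.34), a head and anterior visceral endoderm factor, Foxh1, a partner of Nodal signalling, and the retinoid receptor gene Rxra (-0.43). The mutant pools disagreed on Foxh1, with 0.83 in mutant pool 1 and -0.82 in mutant pool 2 and a fitted value of 0.0038. By the fitted value Cdx2 (-0.68), Gata5 (-0.61) and Nr2f2 (-0.57), named after their values were seen, came next after Otx2.

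Of the 12 genes listed as cofactors and partners, 11 were kept and Dab2 was the 1 called. Its product works in protein uptake, and the gene was already counted among the regulated genes and the yolk sac markers. Zfpm1, which encodes a cofactor of GATA proteins also used in red cells, had a log2 ratio of 1.38 (1.74 in mutant pool 1 and 1.01 in mutant pool 2, adjusted p = 0.206). Bmp4 (0.54), Nodal (0.16), Ppargc1a (0.11) and Tdgf1 (-1.19), a coreceptor gene of Nodal, were not called.

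Few markers of other tissues that the pools could hold were called, though some lay just over the threshold. Of 7 blood genes kept, 0 were called, but 3 were at least 2-fold higher in both mutant pools, against 418 of 12913 kept genes. By the ratio nearer to 0, Alas2 (2.14, limma adjusted p = 0.0568), Klf1 (2.14, adjusted p = 0.0610) and Gata1 (1.66, adjusted p = 0.165) were the highest. The lowest by that measure were Runx1 (-0.43, and 0.42 by the mean of its probe sets), Spi1 (-0.30) and Csf1r (0.10). The list's median was 0.10 and its summed signal was 3673 and 3007 in mutant pools 1 and 2, against 1504 in the normal pool. Of 6 trophoblast genes kept (median 0.96), the homeobox gene Esx1 rose (2.25, adjusted p = 0.0498). Plac1 (1.76, adjusted p = 0.0580), Hand1 (1.35), Tfap2c (0.58), Eomes (0.15) and Cdx2 (-0.68) were not called. Of 8 decidual genes (median -0.29), Prl8a2 was called lower (-3.41), with 91.2 and 111 in mutant pools 1 and 2, against 1376 in the normal pool. Whether the normal pool held more decidua was not tested. Pgr (-0.62), Hoxa10 (-0.45), Hoxa11 (-0.28), Wnt4 (0.40) and Lum (1.57) were not called. The mutant pools lay far apart for Lum, at 0.71 in mutant pool 1 and 2.43 in mutant pool 2, and for Cdx2, at -0.08 and -1.29, and less so for Tfap2c, at 1.04 and 0.13. Their part in the values of the endoderm factors was not tested.

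The genes outside the 8 whose pair of log2 ratios lay nearest to the factors' median of 0.42 in mutant pool 1 and 0.57 in mutant pool 2 were Dsc3, Zfp715, Gna12, Hoga1 and Scaf8. Their Euclidean distance from it was 0.0133 or less, over 2 ratios that share the normal pool. With 3 arrays many genes lie this close, and the likeness is a description only.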

How the data were processed

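Gene expression was measured on Affymetrix arrays, 2 from Dnmt3l mutant pools and 1 from a normal pool. The deposited table holds 1 intensity for each probe set and array, in linear units, made with GCOS and MAS5 per the submitters' processing notes, which give no versions or settings. RNA was extracted with Trizol and copied into biotin-labelled cRNA, per the labels' protocols. The mean after trimming 2% from both ends was 500.0 on each array, so signals had been scaled array by array, and a shift in tissue makeup can move other genes the opposite way. The genome build used for the arrays is not given in the sources used here.

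Control probe sets (64) were left out. Of the rest, 34945 had 1 gene symbol in the platform annotation, 932 had several and 9160 had none. All 8 symbols matched the gene table of assembly GRCm38.p6 by gene identifier. The pseudocount of 31.92 was the median over arrays of the 20th percentile. Probe sets were kept at or above the 40th percentile of the mean of the 2 group means. Limma (version 3.58.1 in R 4.3.3) was run with a variance trend over 27022 kept probe sets, two-sided, with Benjamini-Hochberg adjustment at a threshold of 0.05, on 1 residual and 4.52 prior degrees of freedom. The fit was tested on simulated data. There the normal array was given the same spread as the mutant arrays, so that assumption about the single normal pool was not checked. For each gene the brightest kept probe set was used.

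The 8 genes and all lists were chosen with earlier results of these data known, and the lists are described by counts and medians with no test. From each list the text names the 3 highest and 3 lowest kept genes by the mutant ratio nearer to 0, and every called gene. Promoter sequences and gene positions come from RefSeq tables of GRCm38.p6.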

Additional observations from a re-analysis of the deposited data

How the results depend on the processing

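No paired analysis was possible because the normal group is 1 array with no replicate number. The 14 probe sets of the endoderm factors kept the sign of their fitted log2 ratio under 8 alternatives of pseudocount, filter, array scaling and variance model, except that the stricter filter removed 3 of them. Of these 109 values, 104 stayed on the same side of the threshold and 5 lost a call, all of Hnf4a. In a single mutant pool the sign turned for Hnf4a 1450447_at, Foxa1 and Gata4 1418864_at, where the groups overlapped. Without the filter and without a variance trend limma called 0 probe sets over the array and 0 of the factors, although an unadjusted p was under 0.05 for 2423 probe sets higher and 2451 lower, and for 1641 higher and 1814 lower (1 and 2 of the factors, all higher). The number called over the array was 287 with median centring (263 higher), against 156 (148 higher). Probe set 1427000_at of Hnf4a also lost its call with quantile normalization (adjusted p = 0.0511). With the mean of probe sets 0 of the factors were called and their median log2 ratio was 0.48, against 0.35. Of 73 other genes named, 7 changed sign with that mean: Sox7, Ppargc1a, Lamb1, Shh, Fli1, Runx1 and Csf1r, and none of them was called. It moved 5 by over 1.5-fold (Sox7, Apob, Shh, Tbx5 and Runx1). Leaving out either mutant pool gave medians of 0.42 to 0.57, and left no residual degree of freedom for a test. Cebpa was too near background to be measured.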
